A study of Mus musculus with 32 samples.

Results

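Sphere cultures grown from TH-MYCN mice were compared with the sympathetic ganglion of TH-MYCN mice, to describe which genes of the tumour-forming cells were higher or lower in culture, apart from the transcripts of stromal and blood cells that were lower there. The comparison takes the 8 arrays titled as primary spheres and the 8 titled as TH-MYCN superior mesenteric ganglion (SMG), 16 of the 32 arrays of the series. All 16 samples are from hemizygous TH-MYCN mice of the 129+Ter/SvJcl background at an age of 3 weeks. The primary spheres had been cultured for 8 days. Each group is described as 8 biological replicates. The pooling of animals, the medium and the tissue of origin of the spheres are not stated in the sources used here. The 8 wild-type SMG of the same background and age, and 4 cultures of spheres passaged 5 times (2 arrays each, averaged), are given as levels only.

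The superior mesenteric ganglion is a sympathetic ganglion of the abdomen, made of noradrenaline neurons, satellite glia, Schwann cells, vessels and connective tissue. In the TH-MYCN model a human MYCN gene is driven by a tyrosine hydroxylase promoter, active in cells of the sympathetic lineage, and the mice develop neuroblastoma, often in this ganglion. Sphere culture keeps cells as floating clusters, a condition used to enrich for proliferating neuroblasts. A ganglion array therefore measures a mixture of cell types, whereas a sphere array measures the cells that lived and grew for 8 days. In such bulk RNA, fewer cells of a type and less RNA per cell cannot be told apart.

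Levels are log2 of the processed spot signal minus the 75th percentile of the array, and a difference is the mean of the primary spheres minus the mean of the TH-MYCN SMG (n = 8 each) unless another group is named. Adjusted p-values come from limma, two-sided, with Benjamini-Hochberg adjustment over 15650 tested genes. Called genes are those whose adjusted p lay below 0.05. A probe that Agilent flags as well above background on an array is called detected there. Where a gene was detected on no array of the dimmer group, its fold is given as a bound ("at least"). For it an undetected signal counts as no less than the lowest detected signal of any probe on its array. The probe's own limit of detection may be higher, so the bound is approximate. Where a gene was detected on only some arrays of the dimmer group, the size of the fitted difference rests partly on undetected signals. The 75th percentile signal was 840.2 to 1358 on ganglion arrays and 464.1 to 563.8 on sphere arrays, and 59.05% to 64.07% and 57.01% to 59.73% of spots were detected. Ganglion arrays lay on slides 1 and 2 and sphere arrays on slides 3 and 4, scanned at another time, so slide and group cannot be told apart. The number of arrays limits the precision.

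The comparison was broad. Of the 15650 tested genes 83.2% were called, 7862 higher (50.2%) and 5155 lower (32.9%) in primary spheres. At least 2-fold differences were found for 2517 higher (16.1%) and 3379 lower (21.6%) genes, 37.7% in all. With normexp background correction 2134 genes were at least 2-fold lower, and 1759 among the 12887 genes with a single probe detected on all 16 arrays. For 57.9% of genes the lowest sample of one group lay above the highest of the other (34.6% with spheres higher, 23.3% with spheres lower). The median of all tested genes was 0.27 higher in spheres, so the count and the median of a gene group are read against these shares and that shift. Another scaling moved the median of all genes to between 0.08 and 0.39. The gene lists below are described by counts and medians and had no test of their own.

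Markers of the labelled tissue were present. The 10 sympathoadrenal transcription factors were detected on all arrays of both groups, and so were Th and Dbh, the defining enzymes of noradrenaline cells. Detection separated the groups mostly by loss. Sphere arrays were dimmer and detected fewer spots (57.01% to 59.73%) than ganglion arrays (59.05% to 64.07%). The part of this in the counts of lost and gained symbols was not tested. A total of 622 gene symbols were detected on all 8 ganglion arrays and on 0 of 8 sphere arrays, while 25 symbols were detected on all sphere arrays and on no ganglion array, and 12903 were detected, by any of their probes, on all 16. Of the 622, 583 were also detected on all wild-type SMG arrays and 513 on no passaged array. Passaged arrays detected fewer spots (49.02% to 53.89%) than primary sphere arrays, and the part of this in the count of 513 was not tested.

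Transcripts that mark other cell types were lower in spheres, and they set the background for the tumour cell genes. Of 12 tested macrophage markers 11 fell (median difference -7.22, or -5.74 with the 7 undetected members at their bounds), of 12 fibroblast markers 11 (median -6.85, or -6.13 at bounds), of 7 erythroid markers 7 (median -10.42, or -10.36 at bounds), of 13 endothelial markers 12 (median -3.16, or -2.91 at bounds), of 9 smooth muscle and pericyte markers 9 (median -2.48) and of 14 Schwann and satellite glia markers 12 (median -3.16). The defining macrophage genes C1qa, C1qc, Lyz2, Adgre1 and Mrc1 were detected on no sphere array. Other markers stayed detected on all 8 sphere arrays, 3 of the 12 for macrophages and 4 of the 12 for fibroblasts. The same held for 8 of the 13 endothelial and 7 of the 14 glial markers. The members against the trend were Itgam in macrophages (0.27, SE 0.10), Fbln1 in fibroblasts (1.70, SE 0.20), Kdr in endothelium (1.34, SE 0.21) and Mbp in glia (0.27, SE 0.08). For Kdr and Mbp another probe of the gene gave the opposite direction (-5.88 and -3.32), and after quantile normalization Itgam (-0.09) and Mbp (-0.10) were not higher. The matrix protein gene Fbln1 read 1.44 to 2.08 in spheres, all above the highest ganglion (0.80), and its wild-type SMG mean was -1.58 ± 0.49 (SD, n = 8). Noradrenaline neurons of the ganglion share many genes with the tumour cells. In wild-type SMG the catecholamine, granin and synaptic vesicle list means (6.2, 5.2 and 4.7) lay above those of TH-MYCN SMG (5.5, 4.4 and 3.8). The neuropeptide list mean lay below (-1.2 against 0.4). The part of a loss of ganglion neurons in the falls of such lists was not tested.

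The fall was not equally deep in every culture. The mean level of the fibroblast list was -2.67 ± 0.48 (SD, n = 4) in the 4 cultures of slide 3 and -4.53 ± 0.38 (SD, n = 4) in the 4 cultures of slide 4, against 2.47 ± 0.13 (SD, n = 8) in the ganglia. The glial list read -2.04 ± 0.38 and -3.67 ± 0.08 (SD, n = 4 each) on these slides. Between the slides 11.1% of tested genes differed (1730, limma adjusted p under 0.05), 7.47% lower and 3.58% higher on slide 4. Among them were 8 of the 14 glial and 6 of the 12 fibroblast markers. Lists of other kinds split by slide too, with 6 of 12 neural crest and progenitor genes, 6 of 14 immediate early genes and 4 of 8 genes of the Lin28 and let-7 list. The count of 1730 was 872, 1061, 1149 and 986 without primary sphere 2, 3, 4 and 7. Primary sphere 2 held the most globin signal, with an erythroid mean of -4.17 against -6.68 to -6.06 in the other 7 cultures.

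**Figure D1:**
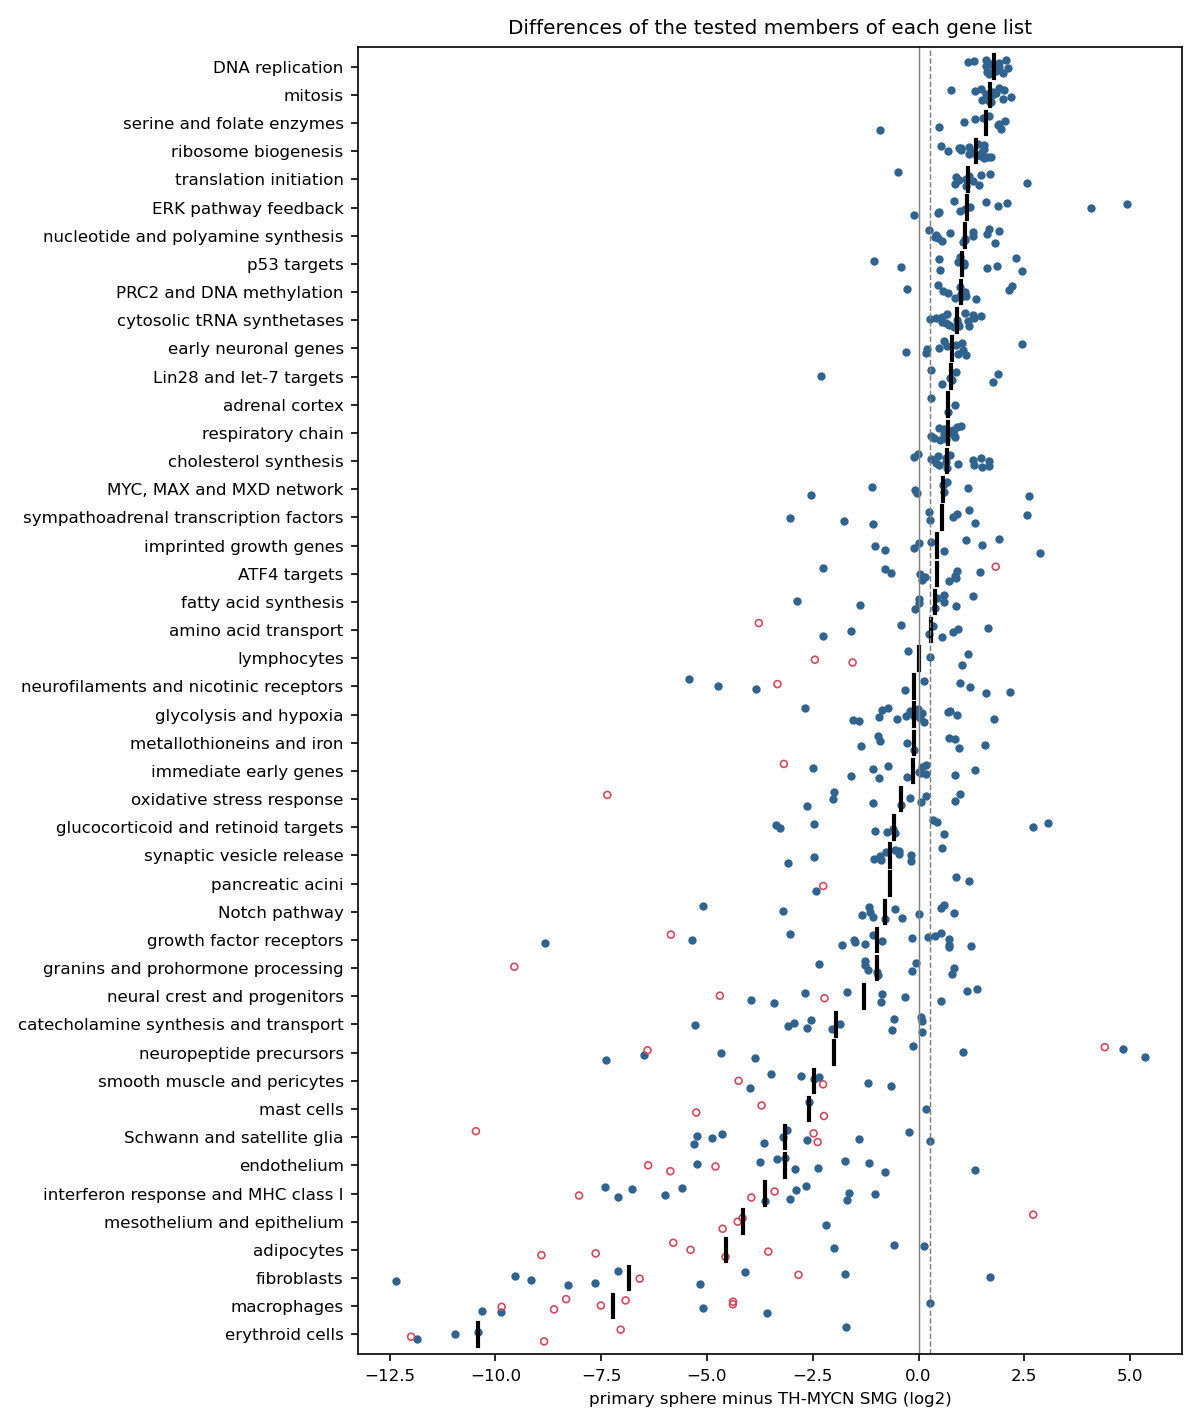
Difference of each tested member of the gene lists between primary spheres and TH-MYCN SMG (x axis, log2, n = 8 against 8), one list per row, ordered by median. Filled blue points are genes with at least 1 detection in each group, open red points are genes detected on no array of one group, black ticks are list medians and the dashed line is the median of all tested genes (0.27). Lists of cell division, ribosome production and translation lie to the right. Most lists of stromal and blood cells lie to the left, the lymphocyte list (median 0.01) excepted, with the tumour cell lists spread between. The interferon (-3.63) and Notch (-0.80) lists also lie to the left.

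The transcription factors that set the sympathetic lineage were all detected in both groups, and single members moved in opposite directions. Of 10 factors 6 rose, 3 fell and Insm1 was not called (0.25, SE 0.26, limma adjusted p = 0.376), with a median of 0.54. These counts were near the shares over all tested genes (50.2% higher and 32.9% lower). Isl1, a LIM homeobox factor, read 3.21, 3.73 and 4.15 (lowest, median and highest) in the ganglia and 4.42, 4.60 and 4.66 in the spheres. All spheres lay above all ganglia, by 0.90 (SE 0.13, limma adjusted p = 8.42e-06). The AP-2 factor Tfap2b read 4.56, 5.05 and 5.40 in the ganglia and 5.84, 6.27 and 6.51 in the spheres, a rise of 1.18 (SE 0.12, limma adjusted p = 7.49e-08) without overlap.

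Gata2 and Gata3, zinc finger factors that act together in the sympathetic lineage, went opposite ways. Gata2 read 2.88, 3.46 and 3.76 in the ganglia and -0.32, 0.19 and 1.16 in the spheres, a fall of 3.03 (SE 0.18, limma adjusted p = 1.71e-10) without overlap. Gata3 read 3.63, 3.94 and 4.15 in the ganglia and 4.15, 4.79 and 5.15 in the spheres. Its rise of 0.82 (SE 0.12, limma adjusted p = 7.28e-06) came with an overlap of the highest ganglion and the lowest sphere. Hand1 and Hand2, related basic helix-loop-helix factors, also parted. Hand1 read 2.64, 3.10 and 3.79 in the ganglia and 0.91, 1.47 and 1.77 in the spheres, a fall of 1.77 (SE 0.16, limma adjusted p = 2.80e-08) without overlap. Hand2 differed by 0.26 (SE 0.07, limma adjusted p = 0.00216), about the shift of all genes, the groups overlapped, and after quantile normalization it was lower in spheres (-0.28).

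Phox2a, a homeobox factor of noradrenaline neurons, read 6.04, 6.37 and 6.79 in the ganglia and 4.72, 5.49 and 5.88 in the spheres, a fall of 1.08 (SE 0.18, limma adjusted p = 2.41e-05) without overlap. In the passaged cultures Gata2 read 2.17 ± 1.29 (SD, n = 4) and Hand1 -0.60 ± 1.22 (SD, n = 4), so the means lay on opposite sides of the primary spheres, with a wide spread.

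Noradrenaline is made from tyrosine by tyrosine hydroxylase (Th), aromatic amino acid decarboxylase (Ddc) and dopamine beta-hydroxylase (Dbh), packed into vesicles by the monoamine transporters Slc18a1 and Slc18a2, and taken back up by Slc6a2. Of 12 genes of this pathway 0 rose and 9 fell, with a median of -1.95, and 3 were not called, Th and Spr among them. The difference was small at the first step and large at the last. Th, the rate-limiting enzyme, read 7.29, 7.76 and 8.21 in the ganglia and 7.65, 7.79 and 8.02 in the spheres, and the groups overlapped over most of their range. Its difference was 0.09 (SE 0.13, limma adjusted p = 0.542), and after quantile normalization it was called lower (-0.86, adjusted p = 4.18e-05). Ddc fell by 0.63 (SE 0.08), from a mean of 6.93 ± 0.13 to 6.30 ± 0.18 (SD, n = 8 each). Dbh read 7.75, 8.10 and 8.42 in the ganglia and 5.76, 6.04 and 6.34 in the spheres, a fall of 2.05 (SE 0.10, limma adjusted p = 1.04e-11) with a wide gap between the groups.

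The carriers Slc18a2 and Slc6a2 fell further. Slc18a2 read 5.13, 5.57 and 6.16 in the ganglia and 2.17, 2.51 and 2.89 in the spheres (-3.09, SE 0.15, limma adjusted p = 6.90e-12). Slc6a2, the noradrenaline transporter through which labelled MIBG enters neuroblastoma cells, read 5.19, 5.96 and 6.53 in the ganglia and -0.13, 0.57 and 1.39 in the spheres. Its fall of 5.28 (SE 0.23, limma adjusted p = 3.09e-12) was the largest of the pathway, and all spheres lay below all ganglia. The breakdown enzyme Maoa fell by 2.94 (SE 0.12), the vesicle electron carrier Cyb561 by 2.55 (SE 0.11) and Gch1, which makes the cofactor of Th, by 1.86 (SE 0.17). All of these genes were detected on all 16 arrays, so the falls do not rest on undetected signals. The wild-type SMG means of Slc6a2 (6.96 ± 0.28, SD, n = 8) and Dbh (8.62 ± 0.26, SD, n = 8) were higher than those of the TH-MYCN SMG. The part of ganglion neurons in the falls of catecholamine genes was not tested.

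**Figure D2:**
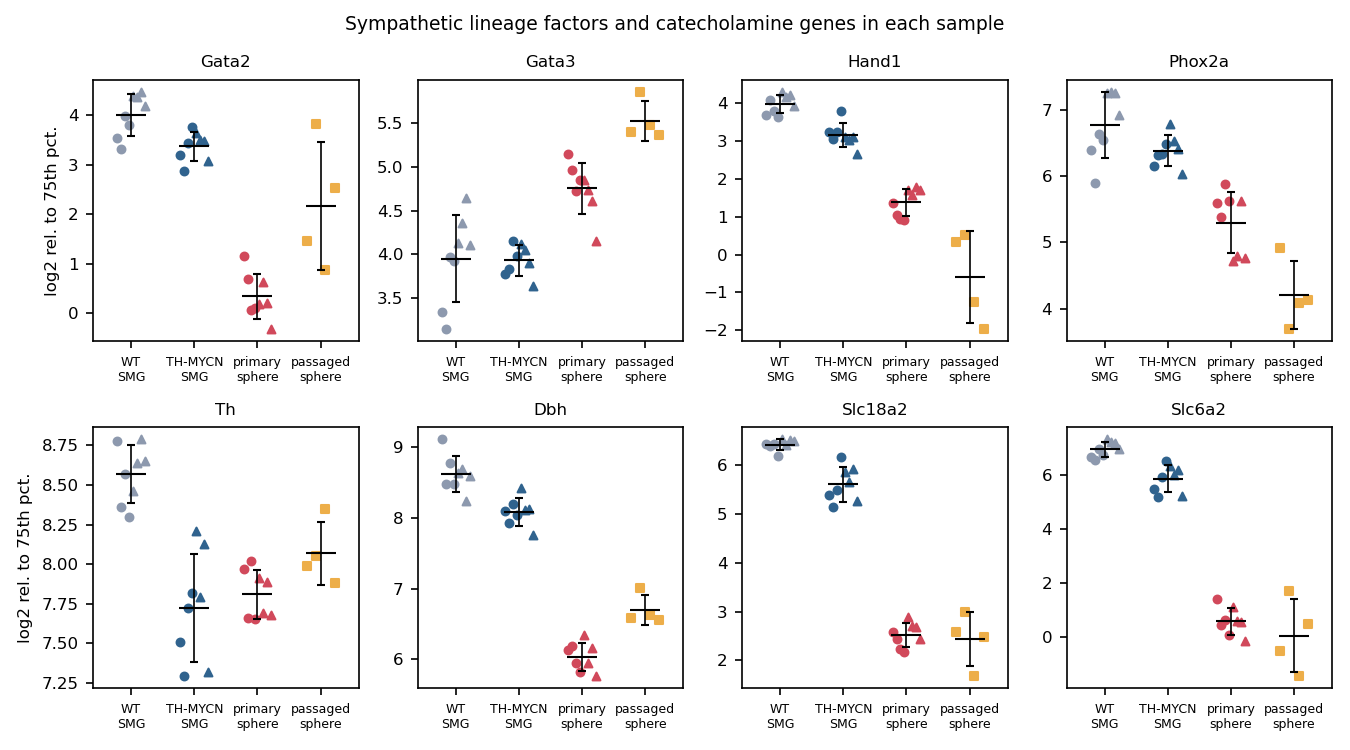
Level of 4 lineage factors and 4 catecholamine genes in every sample (y axis, log2 signal relative to the 75th percentile of the array), by group; circles are slides 1 and 3, triangles slides 2 and 4, squares passaged cultures, and bars are mean ± SD. Th overlaps between TH-MYCN SMG and primary spheres, whereas Slc6a2 drops from 5.19 to 6.53 in the ganglia to -0.13 to 1.39 in the spheres.

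Neuropeptide precursors are cut into peptides that sympathetic neurons release together with noradrenaline. Of 10 tested precursors 4 rose, 5 fell and Calca was not called (-0.12, SE 0.23, limma adjusted p = 0.628), a median of -1.99 over members that went far in both directions. Vip and Cartpt, which rose, and Sst, which fell, are shown by their RefSeq promoters, because all 3 hold the letters TGACGTC, the core of the cyclic AMP response element, set in capitals. In Cartpt and Sst the capitals also cover an overlapping copy on the other strand (GACGTCA). The windows run from 250 bases before to 50 after the start, on assembly GRCm38.p6, at chr10:5638968-5639267 (plus strand) for Vip, chr13:99900634-99900933 (minus strand) for Cartpt and chr16:23890795-23891094 (minus strand) for Sst.
Vip: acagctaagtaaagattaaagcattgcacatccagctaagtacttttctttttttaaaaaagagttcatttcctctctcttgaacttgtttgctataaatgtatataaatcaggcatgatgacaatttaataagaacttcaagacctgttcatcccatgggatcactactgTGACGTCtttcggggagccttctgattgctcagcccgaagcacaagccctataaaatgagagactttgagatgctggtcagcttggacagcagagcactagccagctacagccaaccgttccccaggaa
Cartpt: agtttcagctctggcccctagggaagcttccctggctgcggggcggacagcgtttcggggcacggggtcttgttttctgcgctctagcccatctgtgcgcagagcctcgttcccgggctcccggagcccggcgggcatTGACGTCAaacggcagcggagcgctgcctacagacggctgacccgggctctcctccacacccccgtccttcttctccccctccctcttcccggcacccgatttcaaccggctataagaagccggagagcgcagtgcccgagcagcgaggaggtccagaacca
Sst: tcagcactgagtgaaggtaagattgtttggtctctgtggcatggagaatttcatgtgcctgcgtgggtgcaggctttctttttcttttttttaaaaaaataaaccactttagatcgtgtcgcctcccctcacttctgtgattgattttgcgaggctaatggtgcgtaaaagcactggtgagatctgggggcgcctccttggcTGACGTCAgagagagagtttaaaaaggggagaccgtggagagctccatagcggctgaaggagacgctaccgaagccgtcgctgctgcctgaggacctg

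These letters were present for 4 of the 8 tested precursors with a promoter entry (Vip, Cartpt, Sst and Adcyap1), against 3.21% of all 300-base promoters and 3.6% of genes in the table. The motif was looked for after the values had been seen, and it was present in genes that rose and in one that fell. Vip, the precursor of vasoactive intestinal peptide, read -5.37, -2.45 and -0.98 in the ganglia and 2.21, 2.70 and 3.34 in the spheres. The ganglia were spread over more than 4 log2 units and all lay below all spheres, a rise of 5.34 (SE 0.53, limma adjusted p = 7.98e-08). Cartpt, the precursor of the CART peptide, read 2.09, 3.67 and 4.26 in the ganglia and 8.08, 8.36 and 8.49 in the spheres. It rose by 4.82 (SE 0.23, limma adjusted p = 6.69e-12), and the wild-type SMG mean was -0.67 ± 0.54 (SD, n = 8). Nts, the neurotensin precursor, was detected on no ganglion array and on all sphere arrays, at least 14.0-fold higher (limma adjusted p = 1.95e-08). Adcyap1, the precursor of PACAP, rose by 1.05 (SE 0.29, limma adjusted p = 0.00310), with overlapping groups, and was not called with slide 4 spheres alone (0.83, limma adjusted p = 0.0564).

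Npy, the main co-transmitter of sympathetic neurons, went the other way. It read 6.21, 6.55 and 7.27 in the ganglia and -1.39, -0.69 and 0.33 in the spheres, a fall of 7.38 (SE 0.22, limma adjusted p = 1.91e-14). Sst, the somatostatin precursor, read -1.73 to 0.20 in the ganglia and was detected on no sphere array, at least 27.6-fold below the ganglia (limma adjusted p = 5.91e-14). Penk, the enkephalin precursor, fell by 4.66 (SE 0.25) and was detected on 6 of 8 sphere arrays, and Gal, the galanin precursor, fell from 4.20 ± 0.28 to 0.33 ± 0.08 (SD, n = 8 each). Pnoc, the nociceptin precursor, had its own pattern across the groups. It was detected on no wild-type SMG array, read 2.08, 3.92 and 4.57 in TH-MYCN SMG, and read -3.32, -2.73 and -2.29 in the spheres, a fall of 6.48 (SE 0.30, limma adjusted p = 4.59e-12). Among genes picked after their values were seen, the integrin Itga1 (wild-type mean -0.78, TH-MYCN SMG 3.44, spheres -2.85) and the homeobox gene Rhox3a (-2.53, 3.24 and -3.08) shared this order of means, with falls of 6.29 (SE 0.43) and 6.32 (SE 0.38) from TH-MYCN SMG to spheres.

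**Figure D3:**
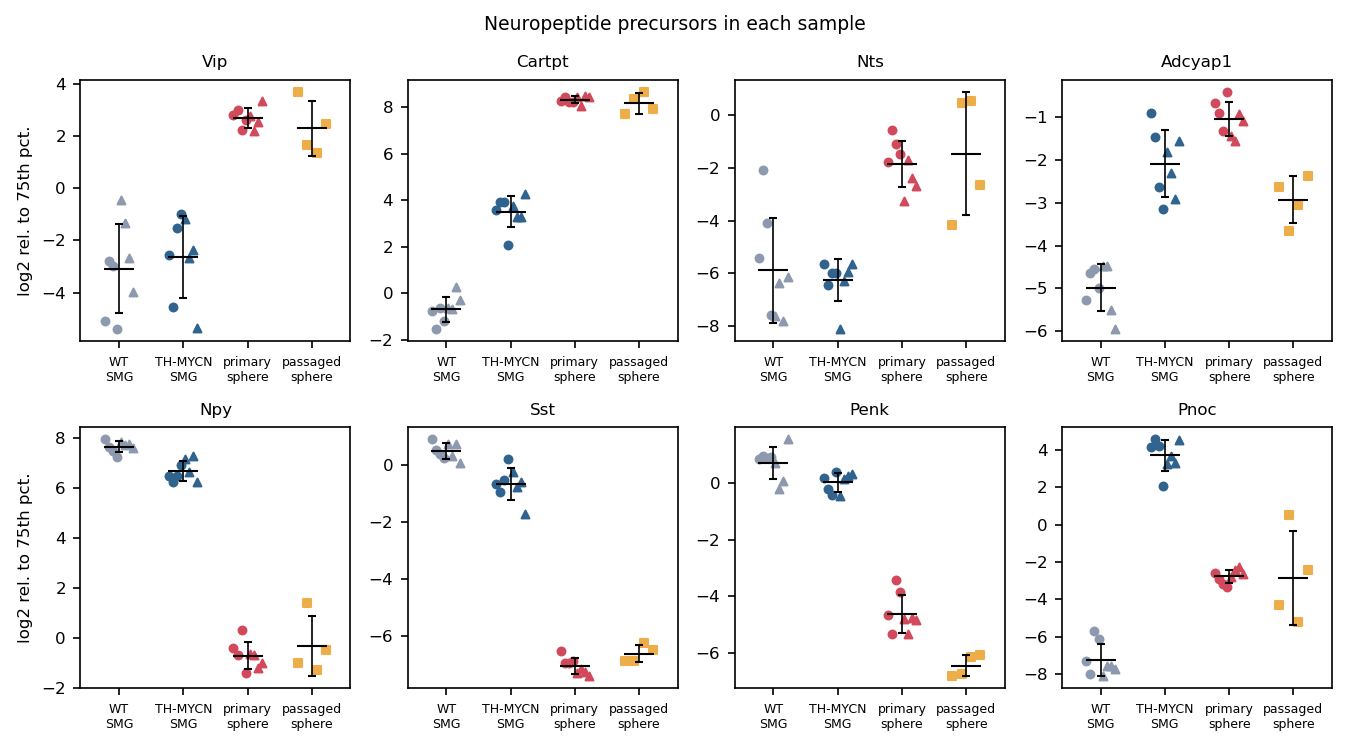
Level of 8 neuropeptide precursors in every sample (y axis, log2 signal relative to the 75th percentile of the array), by group, with mean ± SD; circles are slides 1 and 3, triangles slides 2 and 4, squares passaged cultures. The upper row rises from TH-MYCN SMG to primary spheres, Cartpt to 8.08 or more in all spheres, and the lower row falls, Npy to 0.33 or less.

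Dense-core vesicles store these peptides with granins and the enzymes that cut them. Of 11 such genes 2 rose and 8 fell, with a median of -0.98. Pcsk1, a prohormone convertase, read 1.57, 2.20 and 3.05 in the ganglia and was detected on no sphere array, a level at least 207.7-fold below that of the ganglia (limma adjusted p = 5.84e-15). Pcsk2, the other neuroendocrine convertase, fell by 2.35 (SE 0.11). Chga fell by 0.96 (SE 0.10). Chgb (0.79, SE 0.16) and Vgf (0.84, SE 0.32) rose, both with overlapping groups, and neither was called after quantile normalization (Chgb -0.005, limma adjusted p = 0.983; Vgf 0.29, limma adjusted p = 0.436).

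Genes of young neurons and genes of mature sympathetic transmission differed in direction. Of 12 early neuronal genes 10 rose and 1 fell, with a median of 0.79. Elavl4, an RNA-binding protein of neurons also called HuD, read 2.86, 2.97 and 3.09 in the ganglia and 5.26, 5.45 and 5.51 in the spheres. With a spread of only 0.08 (SD) in each group, this was a rise of 2.45 (SE 0.06, limma adjusted p = 3.49e-16). Dcx, a microtubule protein of migrating neuroblasts, rose by 1.12 (SE 0.20), from a wild-type SMG mean of 0.14 ± 0.22 through 2.72 ± 0.53 in TH-MYCN SMG to 3.84 ± 0.24 in spheres (SD, n = 8 each). Stmn3 was the member that fell (-0.29, SE 0.10), of the same size but not called with the slide as a random block (limma adjusted p = 0.053), and smaller and not called after a median shift (-0.17, limma adjusted p = 0.152) and with slide 4 spheres alone (-0.23, limma adjusted p = 0.156).

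Neurofilaments rose while peripherin and the ganglionic nicotinic receptor fell. Nefm and Nefl, the medium and light neurofilament subunits, rose by 2.15 (SE 0.11) and 1.59 (SE 0.08), with Nefm at 3.37 to 4.11 in the ganglia and 5.54 to 6.17 in the spheres. Prph, the intermediate filament of peripheral neurons, read 5.36, 6.31 and 6.80 in the ganglia and 1.89, 2.17 and 3.52 in the spheres, a fall of 3.84 (SE 0.26, limma adjusted p = 5.79e-10). Chrna3 and Chrnb4 encode the receptor through which ganglion neurons receive their input. Chrna3 read 1.46, 2.08 and 2.68 in the ganglia and -3.02, -2.66 and -2.38 in the spheres (-4.73, SE 0.15, limma adjusted p = 2.99e-14), Chrnb4 fell by 5.41 (SE 0.24), and Chrna5, which joins them, was detected on no sphere array (at least 7.10-fold lower). Chrna7, a subunit that forms receptors on its own, rose by 0.97 (SE 0.07). Over the whole list of 10 genes 4 rose and 4 fell. Of 12 synaptic vesicle genes 9 fell and 1 rose (median -0.67), led by the calcium sensor Syt1 (-3.08, SE 0.18) and the synapsin Syn2 (-2.47, SE 0.19), and Unc13a rose by 0.56 (SE 0.17). Unc13a was not called after centring on the sympathoadrenal factors (0.41, limma adjusted p = 0.089) or with slide 3 spheres alone (0.50, limma adjusted p = 0.0645). For the peripherin, nicotinic receptor and synaptic vesicle genes that fell, the part of ganglion neurons was not tested either.

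Among 18 growth factor receptors 6 rose and 10 fell, with a median of -0.98. Ngfr, the p75 neurotrophin receptor, which glia also express, fell from 6.14 ± 0.65 to 0.78 ± 0.78 (SD, n = 8 each) and was 1.30 lower in the spheres of slide 4 than of slide 3. Egfr was detected on no sphere array (at least 15.7-fold lower), and Kit, a receptor also of mast cells, fell by 1.53 (SE 0.06) with ganglia at 0.71 to 0.89 and spheres at -0.92 to -0.50. Ret, the GDNF receptor kinase, rose by 1.23 (SE 0.19, limma adjusted p = 1.71e-05), from 2.02, 2.89 and 3.61 in the ganglia to 3.54, 4.06 and 4.41 in the spheres, with the highest ganglion above the lowest sphere. Alk, a kinase mutated in some neuroblastomas, read 0.62, 2.29 and 2.65 in the ganglia and 2.34, 2.80 and 3.10 in the spheres. Its difference of 0.71 (SE 0.25, limma adjusted p = 0.0141) was smaller and not called after quantile normalization (0.45, limma adjusted p = 0.114). With fewer spheres, those of slide 3 (0.67, limma adjusted p = 0.0876) or slide 4 alone (0.75, limma adjusted p = 0.0567), it was of like size and not called. Igf1r, the IGF receptor kinase, rose by 0.73 (SE 0.10) without overlap.

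MYC family factors drive growth with their partner MAX and are opposed by MXD proteins. The array's Mycn probe was designed on the mouse gene, and whether it sees the human transcript is not known. It read 0.86, 1.02 and 1.26 in the ganglia and 3.32, 3.62 and 3.79 in the spheres. All spheres exceeded all ganglia, by 2.61 (SE 0.08, limma adjusted p = 1.47e-14), and the wild-type SMG mean was 1.30 ± 0.36 (SD, n = 8). Myc went the other way, from -2.57, -2.37 and -1.94 to -5.89, -4.95 and -3.54 (a fall of 2.55, SE 0.29, limma adjusted p = 3.70e-07), detected on 5 of 8 sphere arrays. Mycl was not called (-0.05, SE 0.24, limma adjusted p = 0.851). Mxd3, the family member of dividing cells, rose by 1.17 (SE 0.26) and Mxd4 fell by 1.11 (SE 0.09). Over the 10 tested genes of this network 6 rose and 2 fell, with a median of 0.58. The share that rose was near that of all tested genes (50.2%).

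Lin28b blocks the maturation of let-7 microRNAs, and it read 0.44, 0.73 and 1.13 in the ganglia and 2.32, 2.51 and 2.73 in the spheres (1.76, SE 0.11, limma adjusted p = 1.98e-10). Of 8 genes in the list of Lin28 proteins and let-7 targets 7 rose, with a median of 0.77. The size of this rise differed by slide, and 4 of the 8 genes were called between the sphere slides. The list mean was -0.62 ± 0.14 (SD, n = 8) in the ganglia. In the spheres it was 0.22 ± 0.15 on slide 3 and -0.29 ± 0.09 on slide 4 (SD, n = 4 each). Igf2bp3, an RNA-binding protein of embryonic tissue, rose by 1.88 (SE 0.26) and was detected on no wild-type SMG array. Its relative Igf2bp2 fell by 2.30 (SE 0.51), but it read 2.73 lower in the spheres of slide 4 than of slide 3 (adjusted p = 0.000822), and the groups overlapped.

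Genes of cell division, ribosome production and translation were mostly higher in spheres. All 18 mitosis genes rose, with a median of 1.69, and all 19 DNA replication genes, with a median of 1.79. The ganglia were uneven in these genes. The mean of the mitosis list read 0.54, 2.10 and 2.63 (lowest, median and highest) in the ganglia and 3.47, 3.56 and 3.70 in the spheres, so that the lowest ganglion, TH-MYCN SMG 4, lay more than 1 log2 unit below the median of its group, while the spheres were alike. Ccnb1, a cyclin of mitosis, read 1.90 to 4.08 in the ganglia and 4.76 to 5.32 in the spheres (1.67, SE 0.24, limma adjusted p = 7.50e-06). Rrm2, a subunit of ribonucleotide reductase, rose by 2.07 (SE 0.25), and Cdt1, which licenses replication origins, by 2.11 (SE 0.23).

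The 18 ribosome biogenesis genes all rose, with a median of 1.36 and the nucleolar proteins Fbl (1.72, SE 0.15), Npm1 (1.64, SE 0.13) and Ncl (1.56, SE 0.13) among the highest. Npm1 read 5.88 to 7.00 in the ganglia and 7.95 to 8.24 in the spheres. The E-box CACGTG, a MYC binding motif that reads the same on both strands, was present for 2 of the 14 list members with a promoter entry (Nop2 and Pes1). It was present in 7.15% of all promoters of that length and for 8.09% of genes in the RefSeq table. Of 12 translation initiation genes 11 rose (median 1.16), with Eif4ebp1, the inhibitory binding protein of Eif4e, the furthest (2.57, SE 0.08, ganglia 1.93 to 2.32, spheres 4.53 to 5.01). Eif5b fell by 0.49 (SE 0.13), and with normexp background correction it rose (0.33). All 17 cytosolic tRNA synthetases rose, with a median of 0.90 and a range of 0.28 to 1.47.

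Metabolic lists divided. Of 10 serine and folate enzymes 9 rose, with a median of 1.60, led by the mitochondrial folate enzyme Mthfd2 (2.04, SE 0.10, ganglia 1.03 to 1.72, spheres 3.10 to 3.58) and the aminotransferase Psat1 (1.95, SE 0.15). Phgdh, the first enzyme of serine synthesis, fell instead, by 0.92 (SE 0.19, limma adjusted p = 0.000256), with overlapping groups and a passaged sphere mean of -0.21 ± 0.67 (SD, n = 4) below all primary spheres. Of 15 nucleotide and polyamine enzymes 14 rose (median 1.09), among them Odc1, the rate-limiting enzyme of polyamine synthesis (1.89, SE 0.14), and Ppat, the first enzyme of purine synthesis (1.81, SE 0.09). All 15 respiratory chain genes rose by 0.29 to 1.00, with a median of 0.70 that fell to -0.06 after quantile normalization, so that their direction depended on the scaling. Of 17 cholesterol genes 14 rose (median 0.68), led by Mvd (1.67, SE 0.14) and Lss (1.66, SE 0.11).

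Glycolysis and hypoxia genes did not rise as a group. Of 20 tested members 4 rose and 8 fell, with a median of -0.11. Hk2, the hexokinase of growing cells, rose by 1.78 (SE 0.23), while Hk1 fell by 1.55 (SE 0.19). The neuronal glucose carrier Slc2a3 fell by 1.40 (SE 0.14), and Ndrg1, a hypoxia-induced gene, fell from 5.04 ± 0.19 to 2.36 ± 0.31 (SD, n = 8 each). In the list of 12 ATF4 targets 6 rose and 3 fell (median 0.44), shares near those of all genes. The stress sensor Sesn2 was at 1.45 (SE 0.20) and Cebpb at -2.26 (SE 0.21). The neutral amino acid carrier Slc38a1 rose by 1.65 (SE 0.12), and the glutamine carrier Slc1a5 fell by 2.25 (SE 0.13), with ganglia at 1.93 to 2.90 and spheres at -0.06 to 0.43. Of 11 oxidative stress genes 3 rose and 6 fell. Slc40a1, the iron exporter, which macrophages also express, was detected on no sphere array and was at least 48.2-fold lower, and Tfrc, the receptor for iron uptake, rose by 1.57 (SE 0.08).

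Genes that ERK signalling induces and that feed back on it were mostly higher. Of 12 tested ERK feedback genes 10 rose and 0 fell, with a median of 1.15. Etv4, an ETS factor induced by receptor kinases, read -1.63, -0.87 and -0.74 in the ganglia and 3.73, 3.90 and 4.10 in the spheres. The gap between the groups was over 4 log2 units and the rise was 4.92 (SE 0.12, limma adjusted p = 1.00e-15). The wild-type SMG mean of Etv4 was -0.73 ± 0.20 (SD, n = 8) and the passaged mean 3.67 ± 0.32 (SD, n = 4). Dusp4, a phosphatase that switches off MAP kinases in the nucleus, read -5.56, -4.37 and -4.01 in the ganglia, where 7 of 8 arrays detected it, and -0.51, -0.35 and -0.20 in the spheres (4.08, SE 0.17, limma adjusted p = 1.69e-12). The relatives Etv5 (2.09, SE 0.15) and Etv1 (1.88, SE 0.20) and the ERK phosphatase Dusp6 (1.20, SE 0.13) rose too, all without overlap. Spry1 (-0.12, SE 0.15, limma adjusted p = 0.482) and Spry4 (0.48, SE 0.34, limma adjusted p = 0.196) were not called. Immediate early genes, many of which also respond to ERK, did not follow. Of 14 tested 2 rose and 6 fell, with the nuclear receptor Nr4a1 at -2.50 (SE 0.21) and Fos at -0.93 (SE 0.22).

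Genes induced by p53 rose as well. Of 12 targets 10 rose and Sesn1 fell (-1.05, SE 0.07), with a median of 1.02. Cdkn1a, the p21 cell cycle inhibitor, read 0.40, 1.04 and 1.63 in the ganglia and 3.07, 3.46 and 3.76 in the spheres (2.45, SE 0.16, limma adjusted p = 4.25e-10). The exonuclease gene Aen rose by 2.30 (SE 0.09), the cell death genes Bax by 1.85 (SE 0.10) and Bbc3 by 1.61 (SE 0.09), and Mdm2, the p53 inhibitor, by 0.51 (SE 0.07), with no overlap in any of them. Cdkn2a, which encodes p16 and the p53 activator p19Arf and was singled out after its values were seen, read -3.32, -1.22 and -0.67 in the ganglia and 1.33, 2.15 and 2.29 in the spheres (3.51, SE 0.31, limma adjusted p = 1.75e-08). The wild-type SMG mean of Cdkn2a was -5.86 ± 0.46 (SD, n = 8), and the 4 passaged cultures were spread widely (0.34 ± 3.69, SD).

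**Figure D4:**
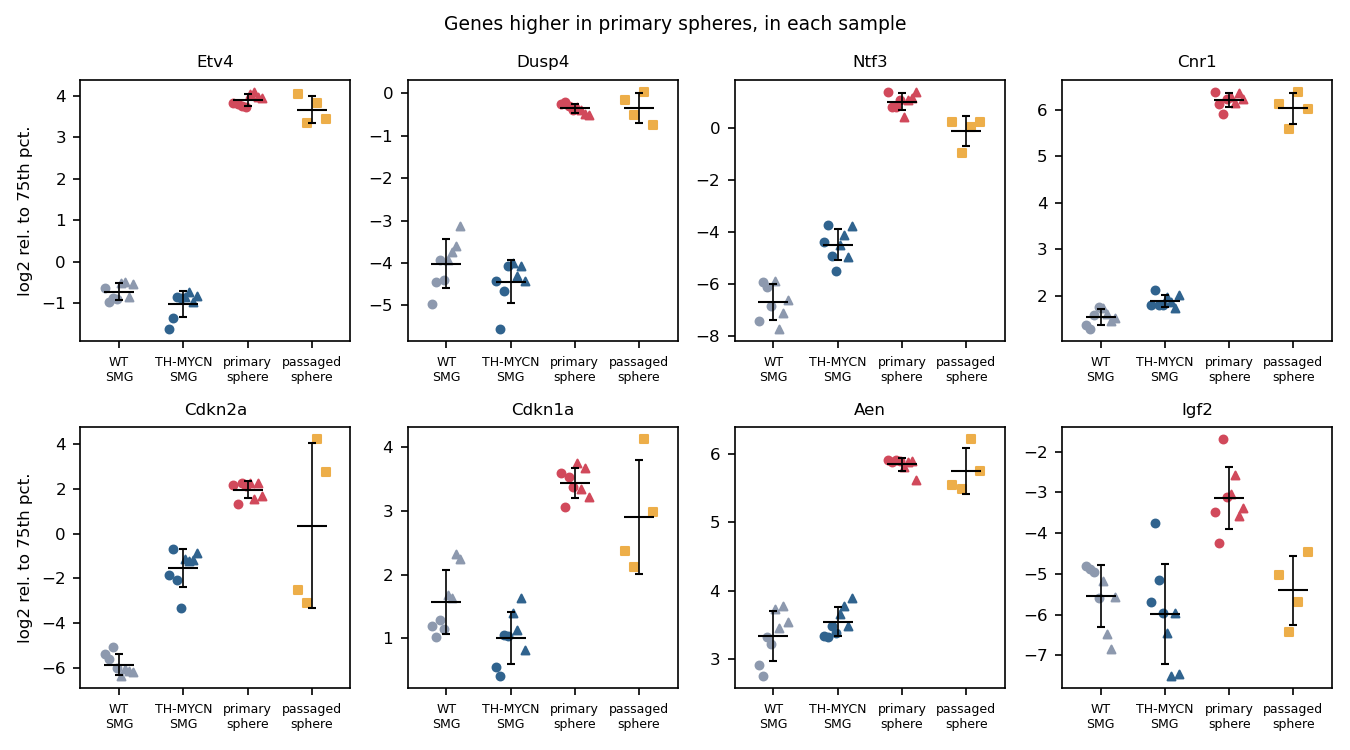
Level of 8 genes that were higher in primary spheres in every sample (y axis, log2 signal relative to the 75th percentile of the array), by group, with mean ± SD; circles are slides 1 and 3, triangles slides 2 and 4, squares passaged cultures. Etv4, Dusp4, Ntf3 and Cnr1 form tight groups with wide gaps, Cdkn2a and Cdkn1a also differ without overlap, and Igf2 was detected on 1 of 8 ganglion arrays and overlaps between the groups.

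Genes of PRC2, which marks histone H3, and of DNA methylation were mostly higher. Of 13 genes of PRC2 and DNA methylation 12 rose (median 1.01), with the maintenance factors Uhrf1 (2.20, SE 0.25) and Dnmt1 (2.14, SE 0.15) ahead of the PRC2 enzyme Ezh2 (1.35, SE 0.21). Of 10 imprinted growth genes 6 rose and 2 fell, a share near that of all genes, and their median of 0.45 was -0.18 after quantile normalization. Peg10, a retrotransposon-derived gene, rose by 1.89 (SE 0.23). Igf2, the insulin-like growth factor, rose by 2.86 (SE 0.47, limma adjusted p = 2.96e-05) but was detected on 1 of 8 ganglion arrays, so its size is uncertain. The passaged mean of Igf2 was -5.41 ± 0.85 (SD, n = 4), below all primary spheres.

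Several of the largest gains lay outside the lists. Pantr1, a long noncoding RNA, had the largest rise, 6.14 (SE 0.62, limma adjusted p = 8.25e-08), from -7.51, -3.48 and -1.74 in the ganglia, where 7 of 8 arrays detected it, to 2.29, 2.38 and 3.54 in the spheres. Pou3f3, a POU homeobox factor of the developing nervous system that RefSeq places on the same chromosome with 1 gene between them, was detected on no ganglion array, no wild-type SMG array and all sphere arrays, at least 12.3-fold higher (limma adjusted p = 5.56e-11). The noncoding RNA 2900092D14Rik, next to Pou3f3 in RefSeq and picked after the values were seen, was likewise gained from no ganglion array to all 8 sphere arrays (at least 5.88-fold higher, limma adjusted p = 1.82e-14). Primary sphere 8 had the highest level of both Pantr1 (3.54) and Pou3f3 (-1.12). The related factors Pou3f1 (1.23, SE 0.16) and Pou3f2 (0.96, SE 0.16), looked at after the values were seen, rose less.

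Other genes gained from below detection in all 8 ganglia were Lhx3, a LIM homeobox factor of motor neurons and pituitary (at least 22.6-fold higher, spheres -2.14 to -0.33), and Npffr1, a receptor for RFamide peptides (at least 24.6-fold, spheres -1.24 to -0.87). Neither was detected in any wild-type SMG. Myh1, a skeletal muscle myosin, was at least 9.76-fold higher, Efcab3 at least 8.06-fold, the phosphodiesterase subunit Pde6a at least 5.00-fold and the mechanotransduction channel subunit Tmc1 at least 4.19-fold. Of the 25 symbols gained by detection 14 were also undetected on all wild-type SMG arrays, and 6 were detected on all passaged arrays. Passaged arrays detected 49.02% to 53.89% of spots, fewer than the 57.01% to 59.73% of primary sphere arrays. The part of this lower detection in the count of 6 was not tested.

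Among genes detected on all 16 arrays, Ntf3, the neurotrophin-3 growth factor, had the largest rise, from -5.48, -4.42 and -3.72 in the ganglia to 0.43, 1.08 and 1.39 in the spheres (5.49, SE 0.23, limma adjusted p = 1.41e-12). Its receptor Ntrk3 fell by 0.87 (SE 0.17). Cnr1, the CB1 cannabinoid receptor, read 1.75 to 2.13 in the ganglia and 5.92 to 6.38 in the spheres, a rise of 4.30 (SE 0.08, limma adjusted p = 2.37e-17) that was also present in the passaged cultures (6.03 ± 0.33, SD, n = 4). Further rises of at least 3.86 were those of the aldehyde dehydrogenase Aldh1a7 (4.69, SE 0.21), the actin-bundling Synpo2 (4.33, SE 0.11), the secreted C1q-like protein C1ql1 (4.22, SE 0.16), C2cd4b (4.19, SE 0.19), the neuronal kelch protein Enc1 (4.11, SE 0.13), the hedgehog-binding protein Hhip (4.01, SE 0.15) and the collagen Col9a1 (3.86, SE 0.25). No sphere overlapped with any ganglion in these genes. Car10, detected on 1 ganglion array, rose by 4.75 (SE 0.36). Retinoid genes divided, with the uptake receptor Stra6 (3.05, SE 0.19) and the retinoic acid receptor Rarb (2.69, SE 0.09) higher, and the degrading enzyme Cyp26b1 (-3.36, SE 0.24, detected on 4 sphere arrays) and Klf9 (-3.28, SE 0.22) lower.

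The largest falls over all genes belonged to stroma and blood. Dcn, a fibroblast proteoglycan, read 5.97 to 6.39 in the ganglia and -7.45 to -4.24 in the spheres and was detected on 2 of 8 sphere arrays. The globin Hbb-b2 was at least 1315-fold lower, H2-Ab1, an MHC class II chain, at least 492.7-fold, the protease Ctss of antigen-presenting cells at least 474.6-fold and the myelin protein Mal at least 440.3-fold, none of them detected on a sphere array. Among genes detected on all 16 arrays and in none of the lists of other cell types, Fgf1, the acidic fibroblast growth factor, had the largest fall, from 4.08, 4.84 and 5.40 to -4.34, -3.91 and -2.17 (-8.50, SE 0.30, limma adjusted p = 1.20e-13). Agtr1a, an angiotensin II receptor, fell by 7.41 (SE 0.23), Cmbl by 7.44 (SE 0.25), Rgcc by 7.05 (SE 0.24) and Dkk3, a secreted Wnt pathway protein, by 6.99 (SE 0.18). The lysozyme gene Lyz1 fell by 7.59 (SE 0.16). Several others of this set encode proteins of macrophages or connective tissue, namely Rarres2 (-7.30, SE 0.45), Serpinf1 (-7.26, SE 0.38), Serping1 (-7.22, SE 0.13), Smoc2 (-7.04, SE 0.18) and Sparcl1 (-6.88, SE 0.16). Rarres2 and Serpinf1 were also lower in the spheres of slide 4 than of slide 3, by 2.16 and 1.91.

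MHC class I molecules show peptides to T cells, and interferon-stimulated genes respond to STAT and IRF factors. All 15 genes of this list fell, with a median of -3.63, or -3.04 with the 3 undetected members at their bounds. The promoters of Ifit1, Ifit3 and Isg15 are shown because they hold the letters GAAA, any 2 bases and GAAA again, or their reverse strand (TTTC, any 2 bases and TTTC), the core of the interferon-stimulated response element, in capitals. Their windows on GRCm38.p6 are chr19:34640639-34640938 (plus strand) for Ifit1, chr19:34583279-34583578 (plus strand) for Ifit3 and chr4:156200769-156201068 (minus strand) for Isg15.
Ifit1: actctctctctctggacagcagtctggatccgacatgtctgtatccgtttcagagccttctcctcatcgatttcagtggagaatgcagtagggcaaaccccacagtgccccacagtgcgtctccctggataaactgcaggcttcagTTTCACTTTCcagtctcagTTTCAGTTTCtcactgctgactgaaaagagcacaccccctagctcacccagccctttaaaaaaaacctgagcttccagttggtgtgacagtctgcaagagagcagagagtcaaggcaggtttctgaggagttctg
Ifit3: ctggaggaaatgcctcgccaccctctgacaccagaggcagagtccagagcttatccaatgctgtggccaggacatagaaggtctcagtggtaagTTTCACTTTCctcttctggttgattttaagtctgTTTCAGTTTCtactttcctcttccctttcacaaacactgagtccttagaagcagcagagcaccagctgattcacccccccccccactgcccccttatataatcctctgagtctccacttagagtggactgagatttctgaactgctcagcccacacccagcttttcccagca
Isg15: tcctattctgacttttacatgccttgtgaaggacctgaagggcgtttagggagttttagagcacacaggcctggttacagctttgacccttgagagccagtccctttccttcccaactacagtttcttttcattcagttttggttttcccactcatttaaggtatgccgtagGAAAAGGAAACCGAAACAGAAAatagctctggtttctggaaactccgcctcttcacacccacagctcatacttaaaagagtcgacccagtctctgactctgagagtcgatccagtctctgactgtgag

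These letters were present for 6 of the 13 list members with a promoter entry (B2m, Isg15, Ifit1, Ifit3, Oas1a and Bst2), against 3.44% of all promoters of that length and 3.99% of genes. This motif was also chosen after the values had been seen. Isg15, a ubiquitin-like protein, read 2.11, 2.48 and 2.86 in the ganglia and -0.64, -0.40 and -0.20 in the spheres, a fall of 2.90 (SE 0.10, limma adjusted p = 6.81e-14). Ifit1 fell by 6.76 (SE 0.35) and Ifit3 by 5.60 (SE 0.39), detected on 1 and 2 of 8 sphere arrays. H2-K1, a class I heavy chain, read 3.47, 3.87 and 4.48 in the ganglia and -0.12, 0.24 and 0.69 in the spheres (-3.63, SE 0.14, limma adjusted p = 3.46e-13), and B2m, its light chain, fell by 3.04 (SE 0.19). The immunoproteasome subunit Psmb8 and the peptide transporter Tap1 were detected on no sphere array (at least 90.8-fold and 4.25-fold lower). Macrophage markers, whose cells express these genes too, moved with them, from a list mean of 0.85 to 1.50 in the ganglia to -5.60 to -5.02 in the spheres, and so did endothelial markers, from -1.34 to -0.40 to -4.09 to -3.24. The part of these cells in the fall was not tested.

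**Figure D5:**
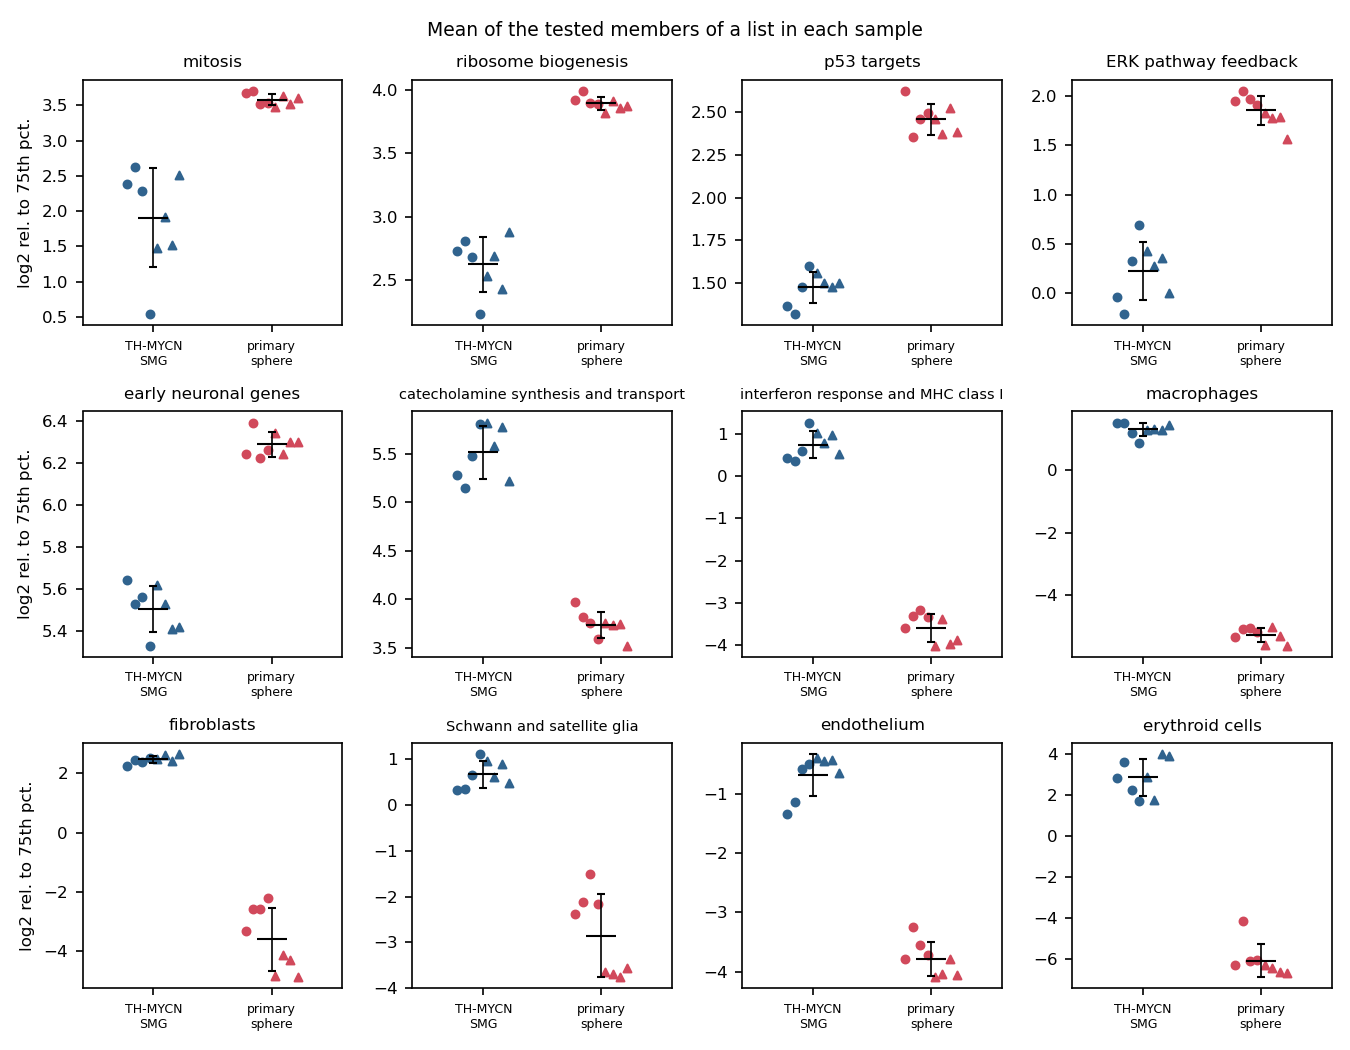
Mean level of the tested members of 12 gene lists in every TH-MYCN SMG and primary sphere (y axis, log2 signal relative to the 75th percentile of the array), with mean ± SD; circles are slides 1 and 3, triangles slides 2 and 4. Growth and p53 lists are higher in all spheres than in any ganglion, catecholamine, interferon and cell type lists are lower, and the fibroblast and glial means of the spheres separate by slide.

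Notch ligands on one cell switch on Hes and Hey repressors in the next. Of 13 Notch pathway genes 9 fell and 2 rose, with a median of -0.80. Hey2 fell by 5.10 (SE 0.44) and Hes1 by 3.20 (SE 0.49), detected on 1 and 2 of 8 sphere arrays, and Hes1 was 2.53 lower in the spheres of slide 4. Hey1, detected on all 16 arrays, fell by 1.17 (SE 0.15). Endothelial markers (list mean -1.34 to -0.40 in the ganglia, -4.09 to -3.24 in the spheres) and glial markers (0.32 to 1.11 and -3.76 to -1.50), whose cells express Notch targets too, fell with the list, and their part was not tested. Hes6, which opposes Hes1, rose by 0.54 (SE 0.07). Of 12 neural crest and progenitor genes 6 fell and 3 rose. Prom1, also called CD133, fell from 2.47 ± 0.46 to -1.50 ± 0.24 (SD, n = 8 each), and Snai2 was detected on no sphere array (at least 9.46-fold lower). Sox2, which glia also express, fell by 3.42 (SE 0.54), was detected on 3 of 8 sphere arrays and was 2.76 lower on slide 4 than on slide 3, as the glial list was. Sox11 and Sox4, SoxC factors of newborn neurons, rose by 1.37 (SE 0.20) and 1.14 (SE 0.15), with Sox11 at 1.68 to 3.22 in the ganglia and 3.61 to 4.40 in the spheres.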

How the data were processed

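The series holds 32 one-colour Agilent arrays of mouse RNA with 62976 features each, of which 16 enter the tests. The deposited files hold spot intensity from Agilent Feature Extraction 11.5.1.1, and per the file headers the processed signal has the background of its own array subtracted, with no scaling across arrays. Flags per spot (detection, saturation, outlier) are of other kinds and were deposited with the intensity, per the file headers. The labels give extraction with ISOGEN II, RNA integrity numbers over 8, and Cy3 labelling of 40 or 200 ng of RNA, without saying which sample had which amount. A medium, the tissue of origin of the spheres and the pooling of animals are not given in the sources used here, so p-values measure the spread between these samples.

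Control and outlier-flagged spots were left out, log2 of the processed signal was shifted by the 75th percentile of each array, and spots of a probe were averaged. Of 55681 probes 27235 were given a gene symbol by matching their accession to RefSeq transcripts (20660 symbols, some old). The other 28446 had no such match and were not tested. A probe was kept if detected on at least 4 of 16 arrays, and a gene took its kept probe of highest mean. The 8 against 8 comparison used lmFit and eBayes (limma 3.58.1, R 4.3.3), checked on simulated data. A bound compares the brighter group with the higher of the dim probe and the lowest detected signal on each array.

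The authors also deposited a log2 value table, whose scale was found by setting each column against its array: 99.9% of its values lie within 0.05 of the scanner values shifted by the 75th percentile and centred per probe. The reference of that centring is unknown, and a direction between groups is taken from the scanner files. The medians of the columns, by group, are -0.02, -0.25, -0.16, -0.27, -0.48, -0.34, -0.36 and -0.37 for the wild-type ganglia, -0.13, -0.11, -0.20, -0.33, -0.32, -0.28, -0.39 and -0.24 in TH-MYCN SMG, 0.02, 0.06, 0.08, 0.04, -0.08, 0.01, -0.05 and -0.07 in primary spheres and 0.31, 0.15, 0.28, 0.30, 0.51, 0.39, 0.45 and 0.35 on the passaged arrays.

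The members, the 46 gene lists and the rules were chosen with earlier results of these data known. Some genes of the rules below are not reported here. Named genes are a panel (Mycn, Myc, Mycl, Lin28b, Alk, Hand2, Gata3, Th, Dbh, Ret, Kit and Npy). To them come the 12 largest rises that were called with each sample left out in turn, detected on all 8 sphere arrays and without overlap, and the 8 largest by bound of those detected on no ganglion array. The 8 largest falls of genes detected on all ganglion arrays and the 12 largest rises and 12 largest falls of genes detected on all 16 arrays and outside the other cell type lists were added, all with curated symbols. Of each list up to 2 rises, 2 falls and any member against the trend were taken. Other list members were named after their values were seen. Promoters are from RefSeq (GRCm38.p6), and the cyclic AMP and interferon motifs were chosen after the values were seen. Alternatives covered background, scaling, filter, probe choice, samples, slide, replicate block, eBayes settings and the deposited table.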

Additional observations from a re-analysis of the deposited data

Results flagged for a closer look

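Of 198 groups of 8 values tested, 25 held 1 sample that lay apart from the rest by Dixon's test, and chance gives about 1 in 20. Primary sphere 2 stood apart for blood genes, with an erythroid mean of -4.17 (nearest other sphere -6.06), Hbb-b2 at -4.85 (nearest -7.09), Hbb-bt at -2.63 (nearest -6.13), Hba-a1 at -2.35 (nearest -5.07) and Hba-a2 at 0.02 (nearest -2.84). The same culture was highest for Car10 (-0.84, nearest -1.92) and Tmc1 (-2.87, nearest -3.38), and lowest for Col9a1 (0.69, nearest 1.21), the imprinted list (2.15, nearest 2.36) and the mast cell list (-6.18, nearest -5.87). Primary sphere 8 was highest for Pantr1 (3.54, nearest 2.87) and Pou3f3 (-1.12, nearest -1.98) and lowest for Enc1 (4.77, nearest 5.14) and the fatty acid synthesis list (1.75, nearest 2.03). Primary sphere 3 was highest for Mal (-5.73, nearest -7.09) and Smoc2 (-1.95, nearest -2.88), and primary sphere 4 for H2-Ab1 (-5.96, nearest -7.47), where Mal and H2-Ab1 were not detected.

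Among the ganglia, TH-MYCN SMG 4 was lowest for Pantr1 (-7.51, nearest -4.26), Cartpt (2.08, nearest 3.28) and the serine and folate list (0.63, nearest 0.94) and highest for Mycn (1.26, nearest 1.04). This ganglion also had the lowest mitosis mean. TH-MYCN SMG 1 was highest for the adrenal cortex list (-1.32, nearest -3.22), the mesothelium and epithelium list (-2.57, nearest -2.90) and Car10 (-4.95, nearest -6.59), and TH-MYCN SMG 5 lowest for Nts (-8.12, nearest -6.45), undetected in all ganglia.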

How the results depend on the processing

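Over 30 alternatives 170 of 203 named genes kept their direction and side of the threshold in every one. In any alternative 26 lost a call and 15 changed direction, and some genes did both under different alternatives. Of 46 list medians 36 kept their sign. The causes were not tested. Leaving out 1 sample gave 7728 to 7905 genes higher, 5058 to 5205 lower, 2315 to 2659 at least 2-fold higher and 3316 to 3439 at least 2-fold lower. At least 2-fold lower genes numbered 2134 with normexp background and 1759 of the 12887 genes with a single probe detected on all 16 arrays, where fewer genes were tested. Gained genes numbered 69 with 1 array off allowed in each group. Genes differing between sphere slides numbered 1134 after centring on the sympathoadrenal factors and 872 to 1453 with 1 sphere left out (872 without sphere 2, 1061 without 3, 1149 without 4, 986 without 7). After quantile normalization the sign turned for Hand2 (-0.276), Th (-0.861), Itgam (-0.088), Mbp (-0.102), Chgb (-0.005), Gapdh (-0.081), Ldha (-0.227), Atp5b (-0.085), G6pdx (-0.116), Dlk1 (-0.257) and the medians of amino acid transport (-0.183), respiratory chain (-0.058) and imprinted genes (-0.184). With normexp it turned for Ms4a1 (0.305), Cpa1 (0.432), Eif5b (0.328) and the acinar median (0.634). With the mean of probes it turned for Kdr (-2.271), Mbp (-0.61), Slc11a2 (0.231) and the metallothionein and iron median (0.231), which was 0.004 after a median shift. Among genes detected on all 16 arrays the mast cell median was 0.166 and that of neurofilaments and nicotinic receptors 0.123. Correlations of same-numbered samples were -0.075 to 0.145, with 1 of 8 pairs above 0.1, and 1 sample correlated best with its own number. Correlations between a tissue and a culture cannot tell whether samples of the same number share an animal, and the sources do not state it. With the replicate block 7910 genes were higher and 5148 lower. Signals near background limit the size of falls, given as bounds where no sphere array detected a gene.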

Other observations

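The remaining lists of other cell types held few tested genes. Of 9 adipocyte genes 8 fell (median -4.56, or -3.36 at their bounds), of 5 mast cell genes 4 (median -2.58, or -1.73 at their bounds) and of 5 mesothelial and epithelial genes 4, while 2 of 3 adrenal cortex genes rose (median 0.70) and 2 of 4 acinar genes rose and 2 fell. One of the adrenal cortex genes, Star, was not called under 5 alternatives, with the slide as a random block among them (0.70, limma adjusted p = 0.111). Of 6 tested lymphocyte genes 2 rose and 2 fell. The T cell genes Lck (1.16) and Cd3e (1.03) were the ones that rose.

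Lipid genes were mixed. Of 11 fatty acid synthesis genes 6 rose and 2 fell (median 0.39), with the desaturase Fads2 at 1.30 higher and Me1, which makes NADPH, and the desaturase Scd1 lower by 2.87 and 1.39. Of 10 amino acid transporters 6 rose and 4 fell (median 0.29), and of 9 metallothionein and iron genes 4 rose and 4 fell (median -0.12). The shares of fatty acid synthesis genes and amino acid transporters that rose were near that of all genes (50.2%). Of 12 glucocorticoid and retinoid targets 5 rose and 7 fell (median -0.59).

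The sterol element TCACNCCAC was present in the promoters of 1 of 9 cholesterol genes in the RefSeq table, in 1.24% of all promoters and for 1.44% of all genes there. The CEBP-ATF element TGATGNAAT, present in 0.965% of all promoters and for 1.08% of genes, was found in 0 of 12 ATF4 targets, 0 of 6 amino acid transporters and 3 of 10 tRNA synthetases. Both were searched on both strands.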
